A study of Homo sapiens with 18 samples.

Results

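The H33 and H12 cells are a pair of clones described as HepG2 with the DNAJB1-PRKACA fusion, and they were compared here with each other. The members are the genes listed by Ensembl identifier in both deposited comparisons with HepG2, 14765 of the 15019 genes listed in either. H33 (6 libraries) and H12 (6 libraries) carry the fusion, and HepG2 (6 libraries), a hepatoblastoma line from ATCC labelled wild type, does not. All 18 poly-A RNA libraries came from cells kept in one medium, with an RNA integrity number of at least 7.5, and no drug or other agent separates the groups. Each group is 1 line, so a difference between the clones covers every way in which those lines differ. No label names separate cultures behind the replicates, and the p-values therefore measure the spread between these libraries, which may be technical.

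In the fusion, the start of DNAJB1, which encodes a partner of HSP70 chaperones, is joined to PRKACA, which encodes the catalytic subunit of protein kinase A (PKA). It is the hallmark of fibrolamellar carcinoma, a liver cancer. PKA is held inactive by regulatory subunits, is freed by cAMP, and phosphorylates CREB, a factor that acts through the cAMP response element in promoters. Phosphodiesterases such as the PDE4 enzymes break cAMP down and are themselves induced by PKA signalling in many cells.

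The difference between the clones was taken as the log2 fold change of H33 over HepG2 less that of H12 over the same HepG2 libraries, so a positive value is higher in H33. Its standard error (SE) combines the errors implied by both ratios and their likelihood ratios. A gene was called at an adjusted p under 0.05 (two-sided normal test, Benjamini-Hochberg over all 14765 genes). Levels are CPM, that is, read counts divided by library size, as implied for a whole group by the mean level and the fold change, so no value per library stands behind them and depth is unknown. They are not divided by gene length, and levels of different genes are not compared.

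Both clones lacked most of what marks a hepatocyte. The 9 hepatocyte markers (ALB, APOA1, APOB, TTR, SERPINA1, TF, FGB, AHSG and HNF4A) summed to 111 CPM in H33, 910 CPM in H12 and 57254 CPM in HepG2. Their median level was 0.235% of HepG2 in H33 and 1.60% in H12. Of 8 neuroendocrine markers, the 4 in both comparisons summed to 2468 CPM in H33, 2303 CPM in H12 and 5.70 CPM in HepG2. SCG2 made up most of the sum in both clones. SNAP25 had 51.9 CPM in H33 and 24.9 CPM in H12, and CHGB 6.15 and 4.46 CPM. CHGA, INSM1 and NEUROD1 were among the markers outside the shared genes. Of 8 fibroblast markers 4 were shared, at 1445, 1193 and 10.4 CPM in H33, H12 and HepG2, of which COL1A2 made up 1440.4, 1190.2 and 3.88 CPM, and DCN, LUM, PDGFRA and THY1 were outside the shared genes. Endothelial (2 of 6 shared, 1.79, 2.02 and 7.24 CPM) and cholangiocyte markers (2 of 6 shared, 263, 263 and 236 CPM) had no called member. Of the 7 leukocyte markers, 4 were shared (183, 188 and 3206 CPM), and PTPRC, CD3E and CSF1R were not. CD68 alone was called, and it made up 178, 136 and 64.5 CPM of these sums in H33, H12 and HepG2. Most of the HepG2 sum thus lay in other markers. The files hold no genotypes, so descent from this HepG2 stock was not checked.

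Genes that H33 had almost lost did not reach the same depth in H12. Among 160 genes with a log2 fold change under -9 in H33 and at least 10 CPM in HepG2, the median level was 0.107% of HepG2 in H33 and 1.64% of HepG2 in H12. In H12 the quartiles of this share were 1.51% and 1.80%, and it did not move with the level in HepG2: the median was 1.65% for genes at 10 to 30 CPM, 1.66% at 30 to 100 CPM, 1.65% at 100 to 1000 CPM and 1.63% above 1000 CPM. The SE of the ratio had a median of 0.12 in H33 and 0.81 in H12 for these genes. The alpha-fetoprotein gene AFP, for example, had 0.0372 CPM in H33, 67.2 CPM in H12 and 4122 CPM in HepG2. The gene for the secreted protein AHSG had 1.42, 84.8 and 5965 CPM in H33, H12 and HepG2. How this common share is spread over the 6 H12 libraries was not tested, since values per library were not used. Results below are therefore given apart for the 13359 genes whose H12 level was at least 5 times the common share and for the 1406 genes at or under that bound.

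**Figure D1:**
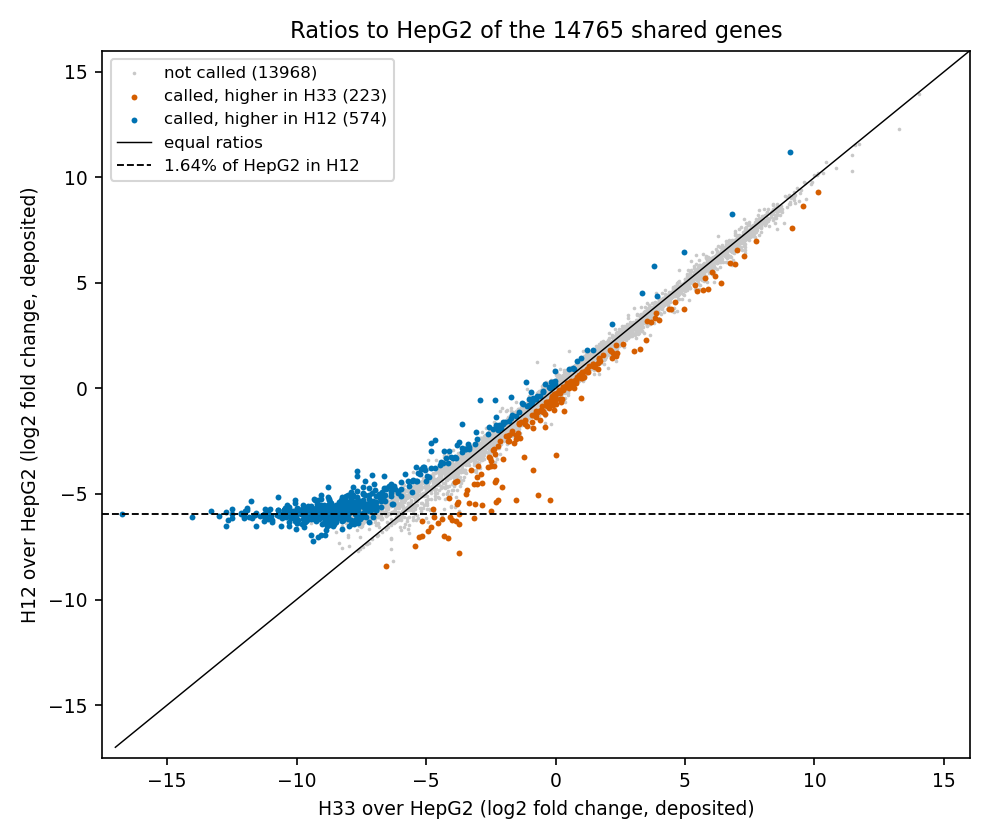
Each point is 1 of the 14765 shared genes, with the deposited log2 fold change of H33 over HepG2 on the x axis and of H12 over HepG2 on the y axis; orange and blue mark genes called higher in H33 and in H12. Most genes lie on the solid line of equal ratios, while genes far down in H33 level off in H12 at the dashed line, 1.64% of the HepG2 level.

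Over all shared genes, 797 (5.4%) were called, 223 higher in H33 (1.51%) and 574 higher in H12 (3.89%). At least 2-fold were 553 (3.75%), 61 higher in H33 (0.413%) and 492 higher in H12 (3.33%). Most of the second count lay at or under the bound: of the 1406 genes at or under the bound, 537 (38.2%) were called, 50 higher in H33 (3.56%) and 487 higher in H12 (34.6%), with a median difference of -1.21. At least 2-fold were 519 of these (36.9%), 45 higher in H33 (3.2%) and 474 higher in H12 (33.7%). With the common share taken off the H12 levels, 14370 genes stayed above 0, and 231 of these were called, 187 higher in H33 and 44 higher in H12. The majority thus turned to H33, but a share taken off H12 alone can only move differences that way. The other 395 genes were left without an H12 level and were not tested. With only genes of at least 1 CPM in either clone, 259 were called, 129 higher in H33 and 130 higher in H12.

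Above the common share the clones were close, within a bound that rests on the H12 level alone. That bound sets apart genes low in H12 but kept in H33, such as SPINK1, while genes low in H33 but higher in H12 can stay. The closeness, the counts and the ranking above the share carry this 1-sided choice. Of the 13359 genes above the share, 88.6% differed by no more than 0.25 log2 units in either direction, with a median of 0.01 and quartiles of -0.07 and 0.09. The test called 260 of them (1.95%), 173 higher in H33 (1.3%) and 87 higher in H12 (0.651%). At least 2-fold were 34 (0.255%), 16 higher in H33 (0.12%) and 18 higher in H12 (0.135%). Without the common share in the H12 levels, a step that can only move differences toward H33, the split was 158 to 38. Among the 173 genes higher in H33, 72 stood above HepG2 and 57 below it in both clones with an adjusted p under 0.05 in both of the authors' deposited tables. For the 87 genes higher in H12 these counts were 14 and 61. No gene called by this test had at least 5 CPM in one clone and under 0.5 CPM in the other, once genes at the common share were set apart. Of the 13359 genes, 955 (7.15%) had an unadjusted p under 0.05. The p-values were adjusted over all shared genes, including the 537 called at or under the bound. The threshold of 0.05 therefore does not bound the share of false calls among the 260. An adjustment within the 13359 genes alone is not given here. Calls close to the threshold, such as PDE4B, COL3A1, HLA-B and HLA-C (adjusted p from 0.0364 to 0.0483), are the least secure. The shared HepG2 libraries make the SE too large, and more genes were called with that part taken out, as given in the last section.

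**Figure D2:**
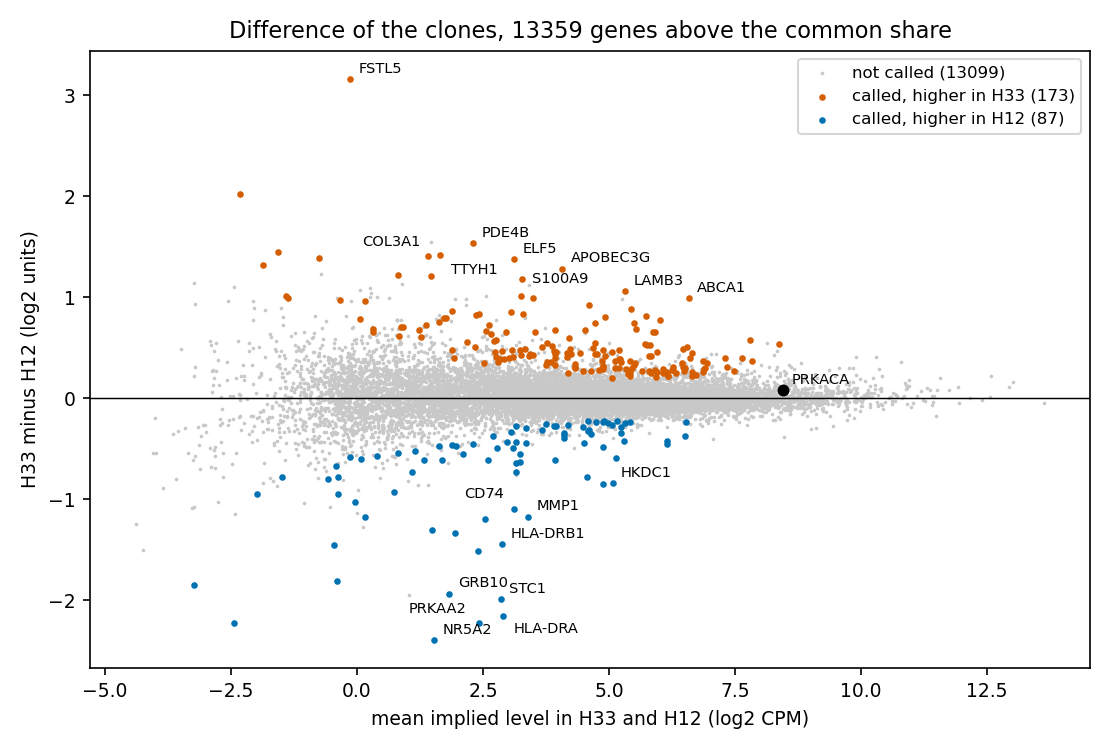
The difference H33 minus H12 in log2 units (y axis) is plotted against the mean implied level of the clones in log2 CPM (x axis) for 13359 genes above the common share; orange and blue points are the 173 and 87 called genes, and the black point is PRKACA. Called genes reach 3.16 upward (FSTL5) and -2.39 downward (NR5A2), and PRKACA lies at 0.08.

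The genes of the fusion did not differ detectably between the clones. PRKACA (ENSG00000072062, GRCh38 chromosome 19, 14091688 to 14118084) had 358 CPM in H33, 340 CPM in H12 and 80.7 CPM in HepG2. Its difference of 0.08 (SE 0.14) was not called, with a 95% interval from -0.21 to 0.36. DNAJB1 (ENSG00000132002, chromosome 19, 14514770 to 14529770) had 178 CPM in H33, 173 CPM in H12 and 205 CPM in HepG2, a difference of 0.05 (SE 0.13, interval -0.22 to 0.31). CDK7, the kinase of the CDK-activating complex that the study's title names, had 42.4, 42.7 and 36.0 CPM in H33, H12 and HepG2. Its interval ran from -0.16 to 0.15. Differences inside these intervals were not detectable, and values per gene do not separate fusion reads from those of the intact genes. None of the 24 genes of the CDK7 complex and transcriptional kinases was called, beside 1.95% of all genes above the common share. An unadjusted p under 0.05 was found for 1 of them, beside 7.15%. A list of this size holds few calls or none at those shares.

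No PKA subunit was called, while a pair of the enzymes that degrade cAMP was higher in H33. Of 35 shared members of the list of PKA subunits, anchors and cAMP enzymes, 30 lay above the common share; 2 were called higher in H33 and 0 higher in H12, beside 1.3% and 0.651% of all genes above the share, and 4 had an unadjusted p under 0.05, beside 7.15%. The median over the 30 was -0.01, beside 0.01 for all genes above the share. PDE4B (ENSG00000184588, chromosome 1, 65792514 to 66374579) had 7.34 CPM in H33, 2.60 CPM in H12 and 0.0132 CPM in HepG2. It had the largest difference of the ranked genes higher in H33, 1.54 (SE 0.50, adjusted p = 0.0393). PDE4A, which also hydrolyses cAMP, had 8.54, 6.56 and 10.0 CPM in H33, H12 and HepG2, a difference of 0.39 (SE 0.11, adjusted p = 0.0125). With the common share taken off, the PDE4B difference stayed at 1.54 but was not called (adjusted p = 0.0971), and PDE4A lost its call when the difference was centred within groups of equal transcript GC (adjusted p = 0.0946). PDE4D (0.26, SE 0.11) and PDE10A (0.09, SE 0.13), named after their values were seen, were not called.

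Of 24 CREB targets above the common share, 2 were called higher in H33 and 0 higher in H12, beside 1.3% and 0.651% of all genes above the share, and 8 had an unadjusted p under 0.05, beside 7.15%. Their median difference was 0.19 against 0.01 for all genes above the share. SIK1, a kinase that restrains the CREB coactivators, had 31.2 CPM in H33, 22.9 CPM in H12 and 10.1 CPM in HepG2, a difference of 0.44 (SE 0.09, adjusted p = 9.96e-05). DUSP1, a phosphatase of MAP kinases and an immediate early gene, had 42.2, 32.4 and 34.2 CPM in H33, H12 and HepG2 and differed by 0.39 (SE 0.09, adjusted p = 0.00175). FOSB (0.56, SE 0.22) and NR4A1 (0.49, SE 0.18), named after their values were seen, did not pass. The list's transcripts had a median GC of 52.6%, and GC moved with the difference over all genes, as described below; its part in the list's median was not tested.

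The promoters of the called CREB targets are shown because both hold letters of the cAMP response element. The 250 bases before the start of each gene are from RefSeq on GRCh38.p14, 5′ to 3′ on the gene's strand, in lower case with the first 5 bases of that element, TGACG or its reverse complement CGTCA, in capitals. The SIK1 promoter (chr21:43427132-43427381, minus strand) holds it at 3 places, and the DUSP1 promoter (chr5:172771196-172771445, minus strand) at 4, of which a pair overlap in the full element TGACGTCA.
SIK1: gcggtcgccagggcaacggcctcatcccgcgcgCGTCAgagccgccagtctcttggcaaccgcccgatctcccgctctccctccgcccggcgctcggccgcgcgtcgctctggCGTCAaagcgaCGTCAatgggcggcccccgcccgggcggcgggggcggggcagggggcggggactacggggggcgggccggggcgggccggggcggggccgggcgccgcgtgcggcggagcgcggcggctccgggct
DUSP1: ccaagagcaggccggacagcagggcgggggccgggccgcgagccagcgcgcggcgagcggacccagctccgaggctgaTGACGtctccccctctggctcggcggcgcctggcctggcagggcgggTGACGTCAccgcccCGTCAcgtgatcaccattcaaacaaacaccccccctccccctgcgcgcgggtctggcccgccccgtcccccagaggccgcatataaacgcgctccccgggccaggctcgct
Among all 35116 promoters, these 5 bases on either strand were in 21.2% of these windows and the full element in 1.65%. They were in 61 of 213 promoters of genes called higher in H33 (28.6%), in 26 of 122 of genes called higher in H12 (21.3%) and in 27.3% of 15966 promoters of shared genes. A match describes the letters and is not a binding site.

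Of the MHC class II genes, 3 were called higher in H12 and none higher in H33. These proteins present peptides to helper T cells; HLA-DRA and HLA-DRB1 form HLA-DR, CD74 is the invariant chain that escorts it, and CIITA is the coactivator that switches the set on. Of 13 genes in the list 7 were shared, all above the common share, and 3 were called, all higher in H12, beside 0.651% of genes called in that direction. The median of the 7 was -0.86. HLA-DRA (ENSG00000204287, chromosome 6, 32439842 to 32445046) had 2.99 CPM in H33, 11.9 CPM in H12 and 0.00532 CPM in HepG2, a difference of -2.16 (SE 0.52, adjusted p = 0.00124). HLA-DRB1 (ENSG00000196126, chromosome 6, 32578769 to 32589848) had 4.13, 10.7 and 0.0359 CPM in H33, H12 and HepG2, a difference of -1.45 (SE 0.36, adjusted p = 0.00203). Both clones stood far above HepG2 in these genes, and reads of HLA-DRB1 can be split with near-identical DRB genes.

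CD74 (ENSG00000019582, chromosome 5, 150401637 to 150412929) stood the other way to HepG2, with 5.48 CPM in H33, 11.9 CPM in H12 and 76.4 CPM in HepG2. Its difference was -1.09 (SE 0.17, adjusted p = 1.50e-08). Taking off the common share left CD74 called. The remaining shared members were named after their values were seen: HLA-DPA1 (6.75 CPM in H33, 11.04 CPM in H12) at -0.76 (SE 0.31), CIITA (1.95 and 3.38 CPM) at -0.86 (SE 0.40) and HLA-DMB (2.16 and 3.09 CPM) at -0.55 (SE 0.44) did not pass. HLA-DMA, which helps load the peptide, had 11.9 CPM in H33 and 11.6 CPM in H12, a difference of 0.02 (SE 0.20). The promoter factors RFX5 (0.01, SE 0.06), RFXAP (-0.05, SE 0.13) and RFXANK (0.11, SE 0.08) were not called. HLA-DPB1, HLA-DQB1 and HLA-DQA1 were listed in the H12 comparison alone, at 1.46, 0.894 and 0.889 CPM in H12.

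The promoters of HLA-DRB1 and CD74 are shown because the conserved class II promoter module ends in a Y box, a CCAAT box known from these genes. As above, 250 bases before the start are given, with CCAAT or its reverse complement ATTGG in capitals, a motif searched after the values were seen. HLA-DRB1 (chr6:32589849-32590098, minus strand) holds 2 such boxes and CD74 (chr5:150412911-150413160, minus strand) 1.
HLA-DRB1: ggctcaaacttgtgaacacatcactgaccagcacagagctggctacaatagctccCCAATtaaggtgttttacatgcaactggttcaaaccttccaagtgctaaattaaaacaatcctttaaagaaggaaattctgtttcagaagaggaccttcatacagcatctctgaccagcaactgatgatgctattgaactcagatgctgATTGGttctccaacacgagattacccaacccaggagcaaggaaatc
CD74: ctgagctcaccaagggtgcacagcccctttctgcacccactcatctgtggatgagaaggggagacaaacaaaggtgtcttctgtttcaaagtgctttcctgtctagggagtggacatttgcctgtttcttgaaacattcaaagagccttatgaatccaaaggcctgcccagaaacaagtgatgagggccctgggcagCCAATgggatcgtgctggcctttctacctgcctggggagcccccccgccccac
The box is common: 32.0% of all promoter windows hold it, as do 37 of 122 (30.3%) of genes called higher in H12 and 71 of 213 (33.3%) of genes called higher in H33.

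A few MHC class I and interferon genes were called higher in H33. Of 16 class I members above the share, 3 were called higher in H33 (1.3% of all genes above the share) and 0 higher in H12, with a median of 0.13. HLA-B had 195 CPM in H33, 162 CPM in H12 and 45.3 CPM in HepG2, and HLA-C 60.1, 50.1 and 60.5 CPM. Each differed by 0.27 (SE 0.09, adjusted p = 0.0483 for HLA-B and 0.0364 for HLA-C). PSMB8, an immunoproteasome subunit, differed by 0.22 (SE 0.07, adjusted p = 0.0237). All 3 lost the call with standard errors raised to the median of their table, HLA-B and HLA-C also after centring by GC, and HLA-B, at 0.28, with the common share taken off (adjusted p = 0.100). The annotated HLA-B and HLA-C genes overlap on the same strand, so their reads may not be separable.

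Of 39 interferon-stimulated genes above the share, 4 were called higher in H33 and 0 higher in H12, beside 1.3% and 0.651% of all genes above the share, with 8 at an unadjusted p under 0.05 and a median of 0.08. BST2, a tether of budding viruses, had 65.3 CPM in H33, 48.9 CPM in H12 and 46.2 CPM in HepG2, a difference of 0.42 (SE 0.09, adjusted p = 0.00015). LGALS3BP, a secreted galectin ligand, had 267, 180 and 374 CPM in H33, H12 and HepG2 and differed by 0.58 (SE 0.18, adjusted p = 0.0270). The exonuclease gene ISG20 (0.45, SE 0.13) and OAS1, a sensor of double-stranded RNA (0.41, SE 0.13), were also higher in H33. LGALS3BP lost the call after centring by GC (0.50), and OAS1, at 0.43, was not called with the common share taken off. RSAD2 (1.04) and IFI6 (0.47), named after their values were seen, were not called.

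The promoters of BST2 (chr19:17405631-17405880, minus strand) and LGALS3BP (chr17:78979924-78980173, minus strand) are shown because they hold the interferon response element (GAAA, any 2 bases, GAAA, on either strand), in capitals here, 2 overlapping copies in BST2 and 1 in LGALS3BP.
BST2: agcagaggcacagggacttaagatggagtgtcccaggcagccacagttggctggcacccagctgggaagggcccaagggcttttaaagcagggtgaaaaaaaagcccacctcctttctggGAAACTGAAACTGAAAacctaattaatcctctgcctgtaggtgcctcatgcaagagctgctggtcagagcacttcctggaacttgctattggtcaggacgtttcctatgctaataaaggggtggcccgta
LGALS3BP: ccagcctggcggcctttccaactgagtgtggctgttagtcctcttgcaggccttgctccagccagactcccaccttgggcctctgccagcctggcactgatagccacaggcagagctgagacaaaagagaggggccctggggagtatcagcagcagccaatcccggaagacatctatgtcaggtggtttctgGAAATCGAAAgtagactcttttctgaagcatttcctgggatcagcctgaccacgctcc
Of the 4 called genes, 3 have the element on either strand in this window, against 3.02% of all promoters. These genes come from a list of interferon-stimulated genes, and the uncalled members were not searched. The count therefore cannot tell the called genes from the rest of their list. It is in 7 of 213 promoters (3.29%) of all genes called higher in H33 and 2 of 122 (1.64%) of those called higher in H12.

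Of 29 matrix genes above the share, 3 were called, all higher in H33, beside 1.3% of all genes above the share, with a median of 0.20. LAMB3, a chain of the basement membrane protein laminin-332, had 54.1 CPM in H33, 25.9 CPM in H12 and 0.439 CPM in HepG2, a difference of 1.06 (SE 0.19, adjusted p = 2.52e-06). LAMA5, another laminin chain, named after its values were seen, differed by 0.45 (SE 0.14, adjusted p = 0.0206). COL3A1, a fibrillar collagen and fibroblast marker, had 3.81, 1.53 and 0.0464 CPM in H33, H12 and HepG2 and differed by 1.40 (SE 0.46, adjusted p = 0.0466). Its call was lost under 3 of the alternative settings. The fibroblast markers COL1A2 (1440.4 CPM in H33, 1190.2 CPM in H12, difference 0.29, SE 0.34) and COL1A1 (0.39, SE 0.36) were not called.

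ELF5, an epithelial transcription factor of gland tissue, had 12.5 CPM in H33, 4.84 CPM in H12 and 1.30 CPM in HepG2, a difference of 1.38 (SE 0.21, adjusted p = 3.64e-09). S100A9, a calcium-binding protein of myeloid and stressed epithelial cells, had 13.4, 5.96 and 0.225 CPM in H33, H12 and HepG2 (1.18, SE 0.26, adjusted p = 0.000234). S100A1 (0.51, SE 0.15) and S100A2 (0.48, SE 0.13) were called in the same direction, 3 of 11 S100 genes above the share and 0 the other way, beside 1.3% and 0.651% of all genes above it. Of 5 shared kallikrein-related peptidases, all above the share, KLK7 alone was called, beside 1.3% of all genes above it called higher in H33. KLK7 had 38.7 CPM in H33, 21.9 CPM in H12 and 0.0346 CPM in HepG2 (difference 0.80, SE 0.25), and the list median was 0.64. KLK8 (1.12, SE 0.45), KLK6 (0.35, SE 0.25) and KLK10 (0.43, SE 0.46), named after their values were seen, were not called. In HepG2, KLK8 had 0.00523 CPM and KLK10 0.00524 CPM, and the error of the HepG2 level enters both ratios. The lack of a call for these genes therefore does not show that the clones were alike in them.

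The other leading genes higher in H33 spread over several functions. APOBEC3G, a cytidine deaminase that restricts retroviruses, had 23.8 CPM in H33, 9.76 CPM in H12 and 2.87 CPM in HepG2, a difference of 1.28 (SE 0.14, adjusted p = 1.65e-17). Other APOBEC3 genes are close copies, so its reads are uncertain. ABCA1, the exporter of cholesterol to apolipoprotein A-I, had 127, 64.3 and 233 CPM in H33, H12 and HepG2 and differed by 0.99 (SE 0.16, adjusted p = 8.94e-08). The lipid transporter gene ABCA12 differed by 1.21 (SE 0.37), CYP26B1, which breaks down retinoic acid, by 1.22 (SE 0.35), and the amino acid transporter gene SLC7A7 by 1.01 (SE 0.22). MME, the membrane peptidase neprilysin, had 31.9 CPM in H33, 16.7 CPM in H12 and 0.0421 CPM in HepG2, a difference of 0.92 (SE 0.28). FAM107B (0.88, SE 0.11), the kinase gene CAMK1G (0.99, SE 0.27) and the homeobox gene MEIS2 (0.86, SE 0.12) complete the 15 ranked genes with TTYH1, given below. With the common share taken off, ABCA12 stayed at 1.21 and MME at 0.92, but neither was called (adjusted p = 0.0685 and 0.0513).

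**Figure D3:**
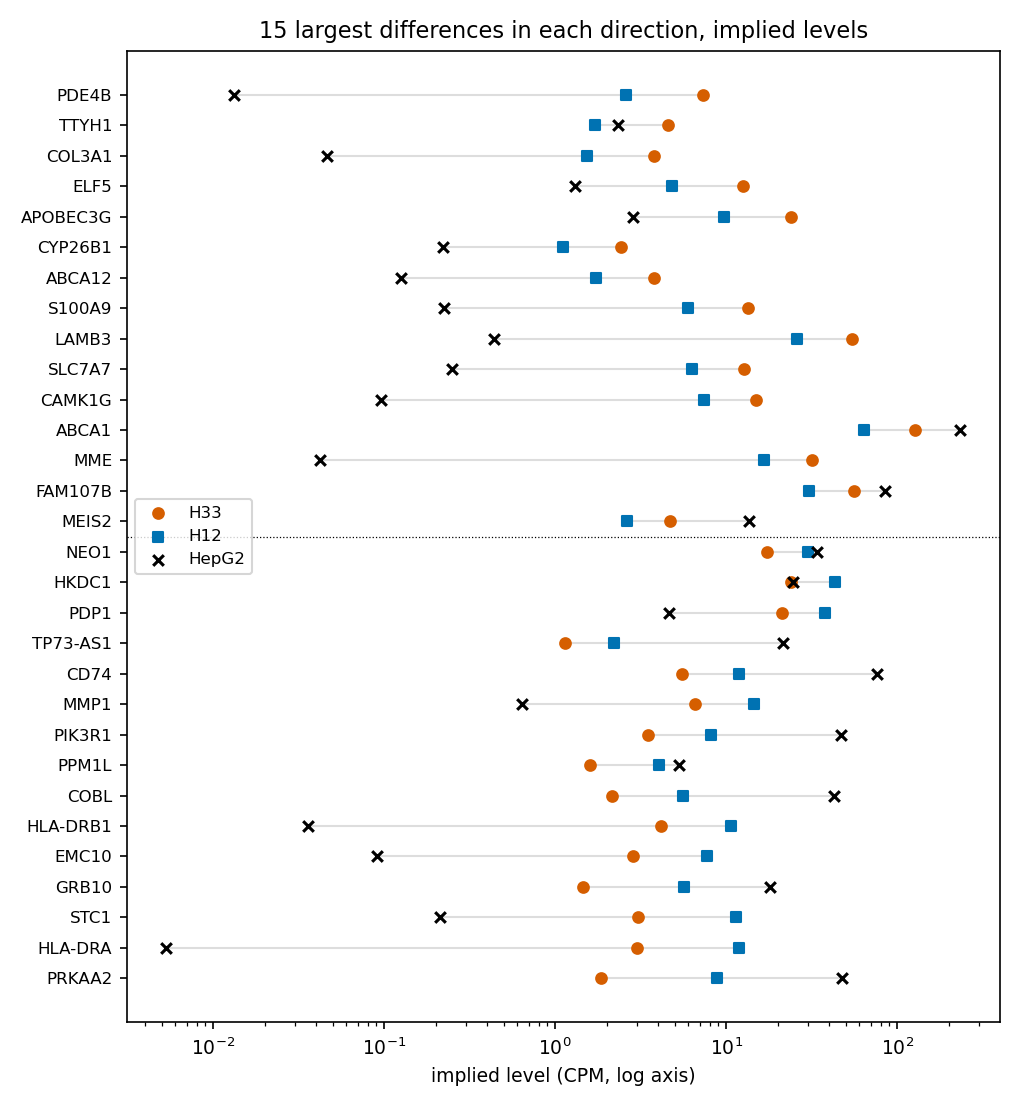
Implied levels in CPM (log axis) of the 15 genes with the largest called differences in each direction, for H33 (orange circles), H12 (blue squares) and HepG2 (black crosses); the dotted line parts genes higher in H33 (upper) from those higher in H12 (lower). HLA-DRA, for example, lies at 2.99 CPM in H33, 11.9 CPM in H12 and 0.00532 CPM in HepG2.

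The ranked genes higher in H12 were led by PRKAA2 (ENSG00000162409, chromosome 1, 56645322 to 56715335), the alpha-2 catalytic subunit of the energy sensor AMPK. It had 1.85 CPM in H33, 8.86 CPM in H12 and 47.6 CPM in HepG2. Its difference of -2.23 (SE 0.14, adjusted p = 2.76e-50) had the smallest adjusted p among genes above the share. The other AMPK subunits, named after their values were seen, were not called: PRKAA1 stood at -0.09 (SE 0.09), PRKAB1 at 0.01 (SE 0.07), PRKAB2 at -0.20 (SE 0.21), PRKAG1 at 0.04 (SE 0.07) and PRKAG2 at -0.14 (SE 0.12). PLPP3, a lipid phosphatase gene that lies 20 bases from PRKAA2 on the opposite strand, also named after its values were seen, was also higher in H12 (11.97 CPM in H33, 18.6 CPM in H12, difference -0.62, SE 0.15).

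GRB10, an imprinted gene for an adaptor that restrains insulin signalling, had 1.45 CPM in H33, 5.69 CPM in H12 and 18.1 CPM in HepG2, a difference of -1.94 (SE 0.15, adjusted p = 3.64e-36). MEST, another imprinted gene of chromosome 7, named after its values were seen, was called in the same direction (6.64 CPM in H33, 11.2 CPM in H12, difference -0.73, SE 0.14). These 2 were the called members of 15 imprinted genes above the share, beside 0.651% of all genes above it called higher in H12. The median of the 15 was -0.04. PIK3R1, the regulatory subunit of phosphoinositide 3-kinase, had 3.48, 8.10 and 47.0 CPM in H33, H12 and HepG2 (-1.19, SE 0.13, adjusted p = 2.04e-17). HKDC1, a hexokinase-like protein, had 24.1, 43.3 and 24.7 CPM, a difference of -0.84 (SE 0.07, adjusted p = 5.24e-29), and PDP1, which activates pyruvate dehydrogenase, differed by -0.85 (SE 0.12).

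STC1, a secreted glycoprotein hormone, had 3.05 CPM in H33, 11.5 CPM in H12 and 0.211 CPM in HepG2, a difference of -1.99 (SE 0.28, adjusted p = 1.66e-10). MMP1, interstitial collagenase, had 6.58, 14.5 and 0.642 CPM and differed by -1.17 (SE 0.19, adjusted p = 7.17e-08). MMP14 (0.73, SE 0.16) and ADAMTS4 (0.61, SE 0.17), which also cut matrix proteins, were called the other way. Thus 2 of 19 proteases above the share were higher in H33 and 1 higher in H12, beside 1.3% and 0.651% of all genes above it. EMC10, a subunit of a membrane insertase of the endoplasmic reticulum, had 2.86, 7.71 and 0.0904 CPM (-1.51, SE 0.40). COBL (-1.34, SE 0.13), the phosphatase gene PPM1L (-1.31, SE 0.18), the netrin receptor gene NEO1 (-0.78, SE 0.09) and the antisense transcript TP73-AS1 (-0.93, SE 0.17) complete this group. Use of strand in counting is not given in the sources used here, so TP73-AS1 reads are uncertain. NR5A2, a liver nuclear receptor named after its values were seen, was under the level set for ranking in H33 (0.906 CPM, against 4.89 CPM in H12 and 7.0 CPM in HepG2) and had a larger difference, -2.39 (SE 0.16, adjusted p = 1.49e-46).

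Few genes stood on opposite sides of HepG2. Past an adjusted p of 0.05 in both of the authors' deposited tables but with opposite signs, 5 called genes were found. TTYH1, a chloride channel family gene, had 4.60 CPM in H33, 1.71 CPM in H12 and 2.33 CPM in HepG2, a difference of 1.42 (SE 0.20). ANKEF1 differed by 0.68 (SE 0.09), MRPL52, a mitochondrial ribosomal protein gene, by 0.38 (SE 0.09), and P3H1, a collagen prolyl hydroxylase, by 0.31 (SE 0.07). TCF7, a transcription factor of the Wnt pathway, had 27.98 CPM in H33, 42.5 CPM in H12 and 36.7 CPM in HepG2, a difference of -0.59 (SE 0.08).

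Some genes called higher in H33 were low in H12. They were named after their values were seen. FSTL5, a secreted follistatin-like protein, had 1.64 CPM in H33, 0.182 CPM in H12 and 1.62 CPM in HepG2, a difference of 3.16 (SE 0.28, adjusted p = 1.17e-25), the largest above the share. SPINK1, a trypsin inhibitor, had 1.59, 0.0761 and 2.53 CPM (4.36, SE 0.33), UGT1A9, a glucuronosyltransferase, 0.623, 0.0189 and 0.734 CPM (5.07, SE 0.58), and the cancer-testis gene MAGEA3 0.182, 0.0109 and 2.43 CPM (4.06, SE 0.49). MAGEA3 was thus far below HepG2 in both clones. UGT1A genes share exons and MAGEA3 has a close copy in MAGEA6 (2.58, SE 0.47), so these are uncertain. Levels this low can make the SE too small.

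With 1.95% of all genes above the share called, lists of this size hold few calls or none by that share alone. No called gene was found among 30 genes of G2 and M phase, 28 ribosomal protein genes or 13 genes encoded in mitochondria, with 0 at an unadjusted p under 0.05 in each list by the same test. The same held for 30 S phase genes (2 unadjusted), 35 respiratory chain subunits (2) and 27 housekeeping genes (1). Their list medians lay between -0.04 and 0.04. The median SE was 0.26 for the ribosomal and 0.27 for the mitochondrial genes, against 0.11 for all genes above the share. Only larger differences could be called in those lists. Glycolytic enzymes had a higher median difference, 0.21, and all 20 had values above 0. Only PFKFB4, which sets the level of a glycolytic activator, was called (17.4 CPM in H33, 12.7 CPM in H12, difference 0.47, SE 0.12). Transcripts of the 20 had a median GC of 53.8%. GC moved with the difference over all genes, as described below, and its part in this median was not tested. Over the 62 lists, which share members, 21 had no called member above the share, 24 had 1 and 17 had more. Of their 1151 members above the share, 61 were called, 44 higher in H33 and 17 higher in H12. Of all genes above the share, 1.95% were called. The lists were chosen with earlier results of these data known, so a higher rate among their members is not a result about the lists.

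**Figure D4:**
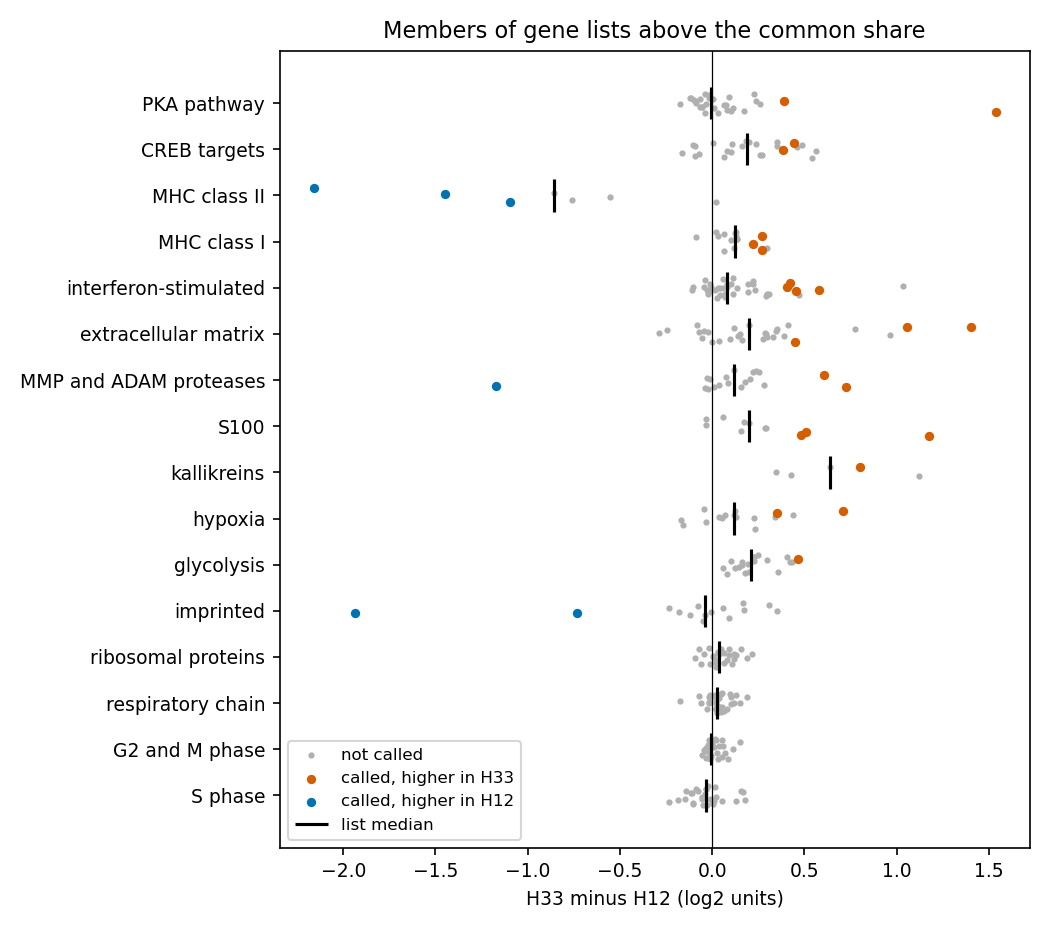
Each point is a member of a gene list above the common share, placed by its difference H33 minus H12 in log2 units (x axis) and drawn with vertical jitter; grey points were not called, orange were called higher in H33 and blue higher in H12, and the bar is the list median. MHC class II has its median at -0.86, while G2 and M phase, ribosomal and respiratory chain genes lie close to 0.

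Most plasma protein and liver transcription factor genes lay at or under the bound of 5 times the common share. Of 32 shared plasma protein genes 31 lay at or under the bound, with a median of 0.239% of HepG2 in H33 and 1.69% in H12, and 11 were called higher in H12, beside 34.6% of all genes at or under the bound. Of 21 liver transcription factor genes 15 lay there. Examples are FOXA2 (0.0740 CPM in H33, 0.643 CPM in H12, 32.3 CPM in HepG2, difference -3.08, SE 0.65) and HNF4G (-6.80, SE 0.68). With the common share taken off, neither was called, and FOXA3 (-3.11) and NR1H4 (-2.87) turned to 1.37 and 3.83, also not called.

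Some called genes were neighbours. Among the 260 called genes above the share, 40 pairs of next called neighbours were within 500 kb, and 36 of these differed in the same direction, 6 of them higher in H12. HLA-DRA and HLA-DRB1 are such a pair, as are GRB10 and COBL on chromosome 7, with 222749 bases and no other shared gene between them, and CAMK1G and LAMB3 on chromosome 1, 931 bases apart. On chromosome 14, SLC7A7, MRPL52 and MMP14 lie in a row and were all higher in H33. The complement genes C1S (0.37) and C1R (0.77) on chromosome 12, named after their values were seen, were also both higher in H33. With 173 of the 260 called genes higher in H33, many pairs share a direction in any case, and no expected number was worked out. Some pairs overlap, such as HLA-C and HLA-B, and may share reads.

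Base composition and position also moved with the difference. Over 12372 genes with at least 1 CPM in both clones, in 10 groups of rising transcript GC, the median difference was -0.04 in the lowest group (median GC 36.9%) and 0.14 in the highest (63.7%). Genes called higher in H33 had a median GC of 55.6%, genes called higher in H12 46.1%, and genes not called 48.4%. Transcripts of the shared kallikrein and MHC class I members had a median GC of 56.6% and 54.8%. The part of GC in those list medians was not tested. After centring within the 10 GC groups, 207 genes above the share were called, 125 higher in H33 and 82 higher in H12. The majority thus stayed with H33. Of 42 chromosome arms, 38 had a GC-centred median within 0.04 of 0. Arms 6p (-0.08, 354 genes, 98 of them higher in H33 before centring) and 11q (-0.07, 475 genes, 177 higher in H33) were lower in H33, and 7p (0.05, 205 genes, 151 higher) and 1p (0.06, 721 genes, 543 higher) were higher. Neighbouring genes are not independent, and no test was made of arms.

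**Figure D5:**
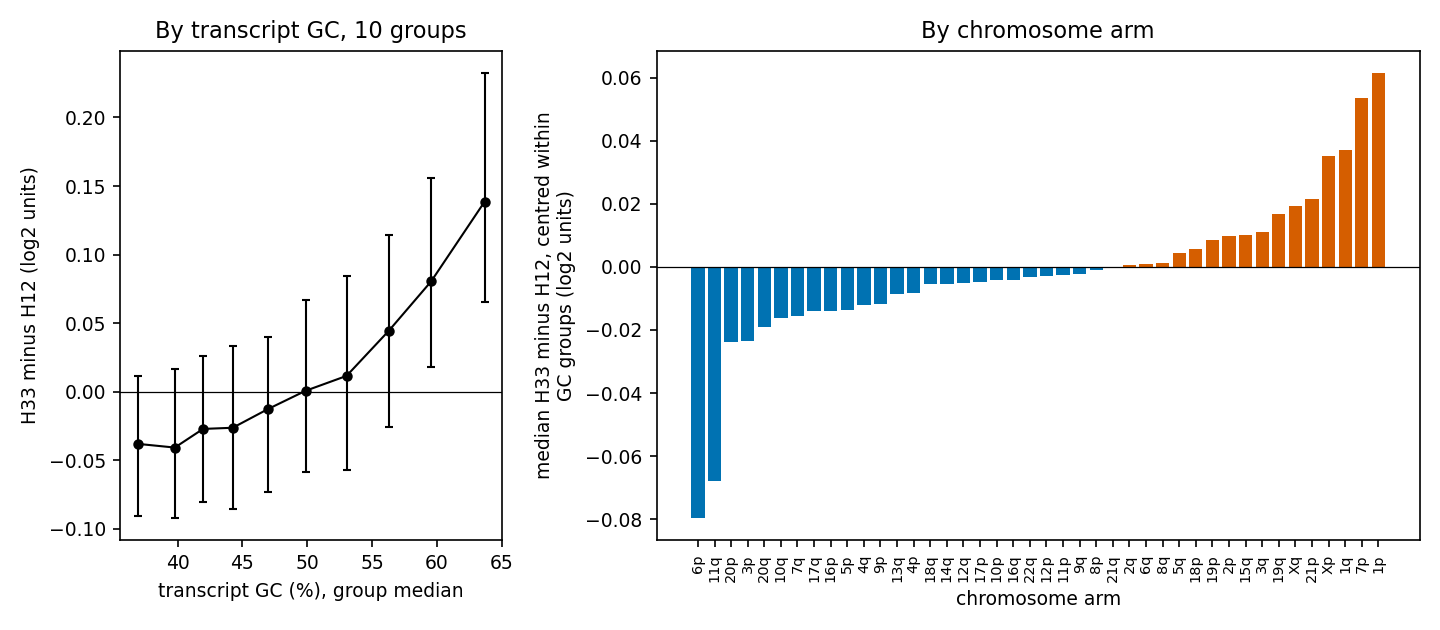
Left, the median difference H33 minus H12 in log2 units with quartiles (bars) for 10 groups of genes by transcript GC in percent; right, the median per chromosome arm after centring within GC groups. The left panel runs from -0.04 to 0.14, and on the right 6p and 11q stand lowest and 1p and 7p highest.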

How the data were processed

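The data were poly-A RNA-seq of 18 libraries. Per the submitters' processing notes, the tools were edgeR 3.28.0, RSEM, STAR 2.5.3a and bcl2fastq 2.20.0.422 and the build GRCh38.p10; roles are not given. Per the file headers, the authors deposited for each clone a log2 fold change over HepG2, a mean log2 CPM, a likelihood ratio (a score), a p-value and an FDR per gene. Counts per library were not used here, so depth is unknown and no group has an SD. From these, Python 3.11.15 (numpy 2.4.6, scipy 1.17.1, pandas 2.3.3) computed the SE of each ratio as its size over the square root of the likelihood ratio, the difference of the ratios, a two-sided normal test and Benjamini-Hochberg adjusted p-values. The ratios share the HepG2 libraries, which makes the SE of the difference too large, while levels near 0 can make it too small. The method was tested on simulated data with known changes and independent noise drawn from the same SEs that the test uses. That simulation could not check the SEs themselves, the effect of the shared HepG2 libraries or that of levels near 0. Gene positions and GC are from GENCODE 29.

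Genes named are PRKACA, DNAJB1 and CDK7, the 15 largest called differences in each direction with at least 1 CPM in both clones and above the common share, genes called on opposite sides of HepG2, and the 4 largest called differences, or fewer, in a described list. The members and lists were chosen with earlier results of these data known.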

Additional observations from a re-analysis of the deposited data

Results flagged for a closer look

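Called genes on opposite sides of HepG2 in the clones were TTYH1 (1.42), ANKEF1 (0.68), MRPL52 (0.38), P3H1 (0.31) and TCF7 (-0.59), given as H33 minus H12 in log2 units. The difference itself was tested for each of them and for the genes that follow.

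Several genes differed from HepG2 by at least 2-fold in one clone and did not pass an adjusted p of 0.05 in the other. HES4, a Notch target, had 1.49 CPM in H33, 0.762 CPM in H12 and 1.56 CPM in HepG2, a difference of 0.96. The adhesion gene SDK1 (1.38), the growth factor gene PDGFD (1.45), FSTL5 (3.16) and UGT1A9 (5.07) were likewise lower in H12 only. SYTL4, a regulator of granule exocytosis, had 0.392 CPM in H33, 1.06 CPM in H12 and 0.864 CPM in HepG2, a difference of -1.46, and ENSG00000259522 differed by -1.81; both were lower in H33 only.

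Genes listed against HepG2 for one clone alone have no value for the other and were not tested between clones. In the H33 comparison alone, ARHGAP24 had 2.48 CPM, KRT17 1.74 CPM and CMAHP 1.52 CPM in H33. In the H12 comparison alone, HLA-DPB1 had 1.46 CPM, LINC01088 1.15 CPM, C9orf163 0.98 CPM, HLA-DQB1 0.894 CPM and HLA-DQA1 0.889 CPM in H12.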

How the results depend on the processing

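Of 797 called genes, the count was 277 with Holm adjustment, 259 with at least 1 CPM in either clone, 1363 with the SE freed of its HepG2 part and 231 with the common share taken off. For the 553 of at least 2-fold, it was 240 with Holm adjustment, 98 with at least 1 CPM and 66 with the share taken off. For the 260 above the share, it was 154 at an adjusted p under 0.01, 53 with Holm adjustment, 704 with the SE freed of its HepG2 part and 172 with SEs raised to the median of their table. List members called were 142, against 85 with at least 1 CPM and 61 above the share. Counts fall under the stricter rules by construction, and taking the share off can only move differences toward H33. With the share taken off, CDK7 turned to 0.0152, FOXA3 to 1.37, NR1H4 to 3.83, HLA-F to 1.64, ADCY1 to 0.15, ZDBF2 to 1.89 and CYP19A1 to 1.70, none of them called. CDK7 also turned, to 0.0348, after centring by GC, an alternative chosen after seeing the data. Of 401 values for 83 named genes, 366 kept direction and side of the threshold, 27 lost the call and 8 turned. No paired analysis was possible because the deposited values are per group, not per library, and for the same reason no replicate could be left out.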
